A study of Mus musculus with 4 samples.

Results

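Interferon-stimulated genes were read in endothelial cells (ECs), the cells that line blood vessels, of the dura mater and of the brain parenchyma. The set held 45 genes, chosen by their symbols, and all 45 were found among the 23282 lines of the count tables. There were 2 libraries of dura mater ECs and 2 of brain ECs, all from C57BL/6J mice aged 8 weeks, and the labels name no transgene and no treatment. Tissues were enzymatically digested, brain ECs were pre-enriched on magnetic beads while no such step was described for the dura mater, and CD31+ CD45- TER-119- cells were sorted. RNA was made into QuantSeq libraries, which read the 3′ ends of transcripts. How many mice went into a library was not given, so p-values measure the spread between these libraries, which may be technical.

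Interferons are secreted proteins that put cells into an antiviral state. Type I interferons bind the receptor Ifnar1/Ifnar2 and interferon gamma binds Ifngr1/Ifngr2. Kinases of the JAK family then activate STAT proteins, which act with interferon regulatory factors (IRFs) on DNA elements near target genes called the ISRE and the GAS. The targets include RNA sensors, enzymes that block viral replication, membrane proteins that stop virus entry or release, and large GTPases that attack the compartments of intracellular pathogens. Vessel-lining cells express both receptors and meet interferons carried in blood.

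Libraries held 13518973 to 16096203 counts. Pan-endothelial markers (12 genes) held 1.10% and 1.30% of counts in brain ECs against 0.943% and 1.22% in the dura mater. Brain barrier genes held 2.47% to 2.84% in brain ECs against 0.330% to 0.355% in dura mater ECs. Of these genes, 10 of 10 were lower without overlap, where 17.1% of all genes tested were, so the libraries followed their labels. Erythroid markers held 1.80% and 2.46% in brain ECs against 0.148% and 0.0773% in the dura mater. Fibroblast markers held 0.257% and 0.217% in brain ECs and 1.17% in each dura mater library, most of it Mgp. Without Mgp they held 0.00331% and 0.00495% in brain ECs against 0.0791% and 0.0633% in the dura mater. Of the 8 markers, 6 were higher in both dura mater libraries, where 25.9% of all genes tested were. Among them were Dcn (16 and 15 against 1184 and 1664 counts) and Col1a2 (4 and 31 against 1135 and 1913). Pdgfra had at most 1 count and Lum at most 4. The part of these markers in the results for the interferon genes was not tested.

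The letters upstream of these genes were read for the cores of the ISRE and the GAS, as a description: a match is not a shown binding site. RefSeq windows (GRCm38.p6) of 250 bases before a transcription start were found for 37 of the 45 genes. They were searched on both strands for GAAA followed by any 2 bases and a further GAAA (the core of an ISRE) and for TTCNNNGAA (the core of a GAS). An ISRE match lay upstream of 16 of the 37 genes (43.2%), against 3.46% of the 27025 genes in the promoter table, and a GAS match upstream of 13 (35.1%), against 8.13%. Either match was present for 22 of the 37 (59.5%), against 11.1% of all genes. The windows shown are those of Irf1, Irf8 and Stat2, which had the smallest p-values among genes with a window, and of Isg15, chosen after its values were seen, whose counts overlapped between the tissues. Capitals mark the matches, 5′ to 3′ on the strand of the gene.
Irf1, chr11:53769764-53770013, plus strand, GAS: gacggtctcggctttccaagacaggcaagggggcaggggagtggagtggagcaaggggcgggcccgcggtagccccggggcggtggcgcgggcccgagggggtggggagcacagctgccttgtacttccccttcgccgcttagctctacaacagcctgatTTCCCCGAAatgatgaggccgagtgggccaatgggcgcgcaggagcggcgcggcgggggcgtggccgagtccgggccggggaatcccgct
Irf8, chr8:120736108-120736357, plus strand, GAS: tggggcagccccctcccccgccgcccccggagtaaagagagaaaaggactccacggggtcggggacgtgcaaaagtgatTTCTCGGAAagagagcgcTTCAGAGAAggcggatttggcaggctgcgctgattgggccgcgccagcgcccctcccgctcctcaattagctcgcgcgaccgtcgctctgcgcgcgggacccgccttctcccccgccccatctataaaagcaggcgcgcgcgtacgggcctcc
Stat2, chr10:128270248-128270497, plus strand, ISRE in reverse orientation: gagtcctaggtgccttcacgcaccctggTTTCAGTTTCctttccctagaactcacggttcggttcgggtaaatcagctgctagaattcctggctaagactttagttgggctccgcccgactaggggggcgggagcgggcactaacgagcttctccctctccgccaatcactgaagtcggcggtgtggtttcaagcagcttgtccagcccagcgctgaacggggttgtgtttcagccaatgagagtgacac
Isg15, chr4:156200819-156201068, minus strand, ISRE: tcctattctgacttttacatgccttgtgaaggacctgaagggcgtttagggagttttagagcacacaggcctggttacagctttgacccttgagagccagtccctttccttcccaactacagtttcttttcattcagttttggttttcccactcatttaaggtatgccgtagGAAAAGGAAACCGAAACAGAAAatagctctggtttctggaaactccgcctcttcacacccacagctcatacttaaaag
Irf1 had a single GAS match that began 90 bases before its start, and Irf8 had 2, at 171 and 153 bases. The Stat2 match began at 222 bases. A second RefSeq window of Irf1 and one of Irf8 held no match. Isg15 had 3 ISRE matches in 1 run, at 78, 72 and 66 bases, each sharing 4 letters with the next. The windows of Stat3 and Ifnar1, next in the order of p-values among genes with a window, held neither set of letters.

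The comparison asked how expression in dura mater ECs differs from that in the brain. By the quasi-likelihood test of edgeR, 0 of the 41 interferon genes that passed the filter on low counts differed at an adjusted p under 0.05, where 0.610% of the 9347 genes tested did. The gene nearest to the threshold was Irf1, about 10-fold higher in dura mater ECs. With unadjusted p-values under 0.05, 4 genes were higher in dura mater ECs (Irf1, Irf8, Stat2 and Iigp1) and 0 were lower. These 4 are 9.76% of the 41, next to a background of 7.04% of all genes higher and 2.97% lower. DESeq2 called the same 4 genes, all higher, at an adjusted p under 0.05 (background 9.02%, of which 6.90% higher), and limma-voom called Irf1 alone (background 0.856%). By unadjusted p-values and in DESeq2, the share of interferon genes called was close to that of all genes.

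The number of interferon genes called depended on the settings and on single libraries. With edgeR it was 1 under upper-quartile scaling (background 0.749%), 4 of 45 without a filter (2.39%), 2 of 31 with at least 10 counts in every library (2.95%), 3 with the newer dispersion estimate (3.26%) and 2 with the replicate number as a block (2.40%). Without brain replicate 1, edgeR called 8 of 44 genes (background 6.38%). Without brain replicate 2 it called 5 of 42 (background 6.05%), and without dura mater replicate 1 or 2 it called 1, Irf1 (background 0.703% and 0.965%). Each such fit assumes that the lone library of a tissue varies like the pair of the other. Of the 41 genes that passed the filter, Stat2 and Irf8 passed through their dura mater counts alone. The 4 that did not pass were Ifngr2, Oas1a, Ifit2 and Mx1.

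Gene by gene, the differences had both signs. Of the 41 tested genes, 22 had a log2 fold change above 0 and 19 below 0 (dura mater over brain throughout), with a median of 0.04. The median over all genes tested was −0.01. The libraries of both tissues did not overlap for 18 of the 41 genes (43.9%, background 43.0%), of which 11 were higher (background 25.9%) and 7 lower (background 17.1%) in dura mater ECs. With 2 libraries against 2, an exact permutation test of a single gene cannot give a p below 0.333.

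**Figure D1:**
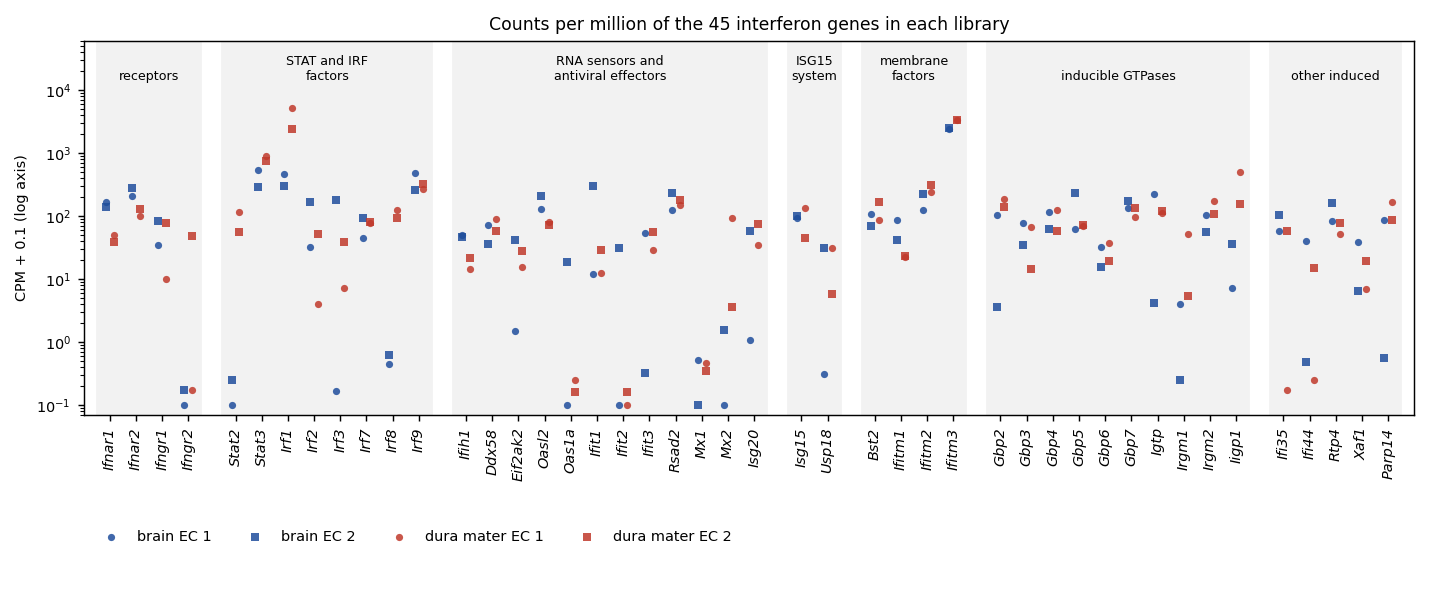
Counts per 1000000 of the scaled library total (CPM) plus 0.1 on a log axis for each of the 45 genes, grouped by role, with 1 point per library (blue, brain ECs; red, dura mater ECs; circles, replicate 1; squares, replicate 2). Irf1, Irf8 and Stat2 show both red points well above both blue points, while for many other genes the colors are mixed or a single library sits far below the rest.

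As a sum, the 45 genes took a larger share of counts in dura mater ECs, and a pair of genes accounted for most of that. They held 0.635% and 0.632% of counts in brain ECs against 1.27% and 0.979% in the dura mater. Irf1 alone held 0.0469% and 0.0288% against 0.512% and 0.247%. Ifitm3 held 0.236% and 0.239% in brain ECs against 0.331% and 0.339% in the dura mater. The other 43 genes together held 0.352% and 0.364% against 0.429% and 0.393%. In sorted bulk samples, fewer cells that express a gene and less RNA of that gene per cell cannot be told apart.

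**Figure D2:**
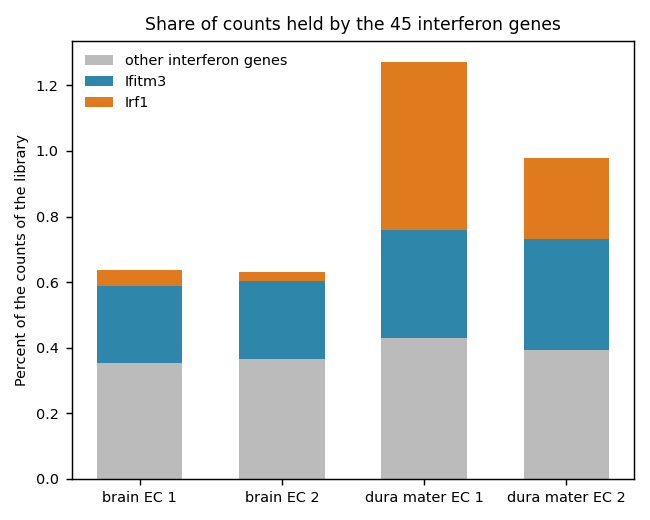
Stacked bars of the percent of each library's counts held by Irf1 (orange), Ifitm3 (blue) and the other 43 interferon genes (gray). The orange segment spans 0.512% and 0.247% of counts in the dura mater libraries and under 0.05% in the brain libraries, whereas the gray segments lie between 0.352% and 0.429% in all 4.

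The 4 receptor chains together held 0.0446% ± 0.00463 of counts in brain ECs against 0.0228% ± 0.00992 in the dura mater (SD, n = 2), without overlap, and most of these counts were from Ifnar1 and Ifnar2. Ifnar1, the first chain of the type I receptor (chromosome 16, 91485238 to 91507441, plus strand, GRCm38), had 2449 and 1846 counts in brain ECs against 662 and 642 in the dura mater. Both dura mater libraries lay below both brain libraries, at 43.8 ± 7.25 against 153 ± 20.6 CPM (SD, n = 2). CPM are counts per 1000000 of the scaled library total. The log2 fold change was −1.80 (SE 0.76), with an edgeR adjusted p of 0.466. Ifnar2, the partner chain (chromosome 16, 91372783 to 91405589, plus strand), had 3025 and 3652 counts against 1338 and 2114, also without overlap (log2 fold change −1.08, SE 0.53, edgeR adjusted p 0.525). The 3′ end of Ifnar2 is shared with the annotated gene Gm21970, identical over 265 bases, so its reads may be split. Neither chain passed the test. The ligand-binding chain for interferon gamma, Ifngr1, varied more between replicates than between tissues, with 500 and 1109 counts in brain ECs against 133 and 1260 in the dura mater. Ifngr2, its signaling chain, had 0 and 1 counts in brain ECs against 1 and 784 in the dura mater, so its only signal was in dura mater replicate 2, and it was not tested.

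The 3 genes with the smallest p-values, Irf1, Irf8 and Stat2, were transcription factors. Irf1, which is itself induced by interferon gamma and other inflammatory signals and switches on antiviral genes (chromosome 11, 53770014 to 53778374, plus strand), had 6790 and 3974 counts in brain ECs against 69265 and 39760 in the dura mater. Its level was 383 ± 118 CPM against 3758 ± 1927 CPM in the dura mater (SD, n = 2), a ratio of 9.82. The log2 fold change was 3.30 (SE 0.48, edgeR adjusted p 0.0540), and over 14 alternatives the adjusted p ranged from 4.4e-22 to 0.0645, with 11 of them under 0.05. The lower dura mater library stood far above the higher brain library. Exons of an antisense gene overlap 3.395% of the exon length of Irf1, and the use of strand in counting was not stated. Genes chosen as markers of the response to tissue dissociation also differed between the tissues, and whether handling induced them was not tested. Of 16 markers of the dissociation response, 15, among them Fos, Egr1 and Socs3, were higher in both dura mater libraries than in both brain libraries (background 25.9%). The 16 held 0.968% and 0.832% of counts in brain ECs against 3.60% and 3.93% in the dura mater. Within the dura mater, their summed share was higher in replicate 2 and Irf1 was higher in replicate 1. Single markers went either way there, such as Socs3 (53080 and 43201 counts) and Egr1 (42616 and 58892). The part of these markers in the difference of Irf1 was not tested.

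Irf8, a factor known for its role in myeloid and B cells (chromosome 8, 120736358 to 120756694, plus strand), had 5 and 7 counts in brain ECs against 1687 and 1527 in the dura mater. It had few counts in both brain libraries and was well counted in both dura mater libraries. Of all genes tested, 24.6% had 64 or more counts in 1 brain library and 7 or fewer in the other. The share was 18.0% for the dura mater libraries. Whether low brain counts reflect missed transcripts was not tested. The log2 fold change of Irf8 was 7.58, with an SE of 1.54 (edgeR adjusted p 0.147, and DESeq2 adjusted p 1.0e-06). Without dura mater replicate 1 its edgeR adjusted p was 0.771, and over all alternatives it lay between those values. The 17 leukocyte and macrophage markers together held 0.0149% and 0.0113% of counts in brain ECs against 0.0137% and 0.00665% in the dura mater, so their sum overlapped between the tissues. Ptprc, which encodes the CD45 of the negative gate, had 1 and 3 counts against 4 and 3, and Cd3e had 0 in every library. Cd68 and Fcer1g were the markers higher in both dura mater libraries (550 and 441, and 610 and 173 counts, background 25.9%).

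Stat2, the partner of Irf9 in the complex formed after type I interferon (chromosome 10, 128270559 to 128292849, plus strand), had 0 and 2 counts in brain ECs against 1546 and 905 in the dura mater. From 2 counts in all in brain ECs, the ratio was 1133, with a 95% exact counting interval from 313 to 9363 that leaves out the spread between libraries. The log2 fold change was 8.64 (SE 2.22, edgeR adjusted p 0.271). Over the alternatives its adjusted p ran from 8.0e-06 in DESeq2 to 0.771 without dura mater replicate 1. Its partner Irf9 was counted in every library and showed no such pattern, with 6913 and 3392 counts in brain ECs against 3594 and 5301 in the dura mater (log2 fold change −0.31, SE 0.47). Stat3, which mainly carries signals of the interleukin-6 family, had 7741 and 3815 counts against 11969 and 12324. Both dura mater libraries were above both brain libraries, but the difference did not pass (log2 fold change 1.00, SE 0.42, edgeR adjusted p 0.466).

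The remaining IRFs overlapped between the tissues. Irf7, the factor that amplifies type I interferon production, had 640 and 1211 counts in brain ECs against 1025 and 1301 in the dura mater. Irf2, which opposes Irf1 at many promoters, had 463 and 2235 counts against 52 and 839. Irf3, which starts type I interferon transcription after a sensor fires, had 1 and 2327 counts in brain ECs against 95 and 647 in the dura mater. For both Irf2 and Irf3 the replicates of a tissue lay further apart than the tissue means.

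**Figure D3:**
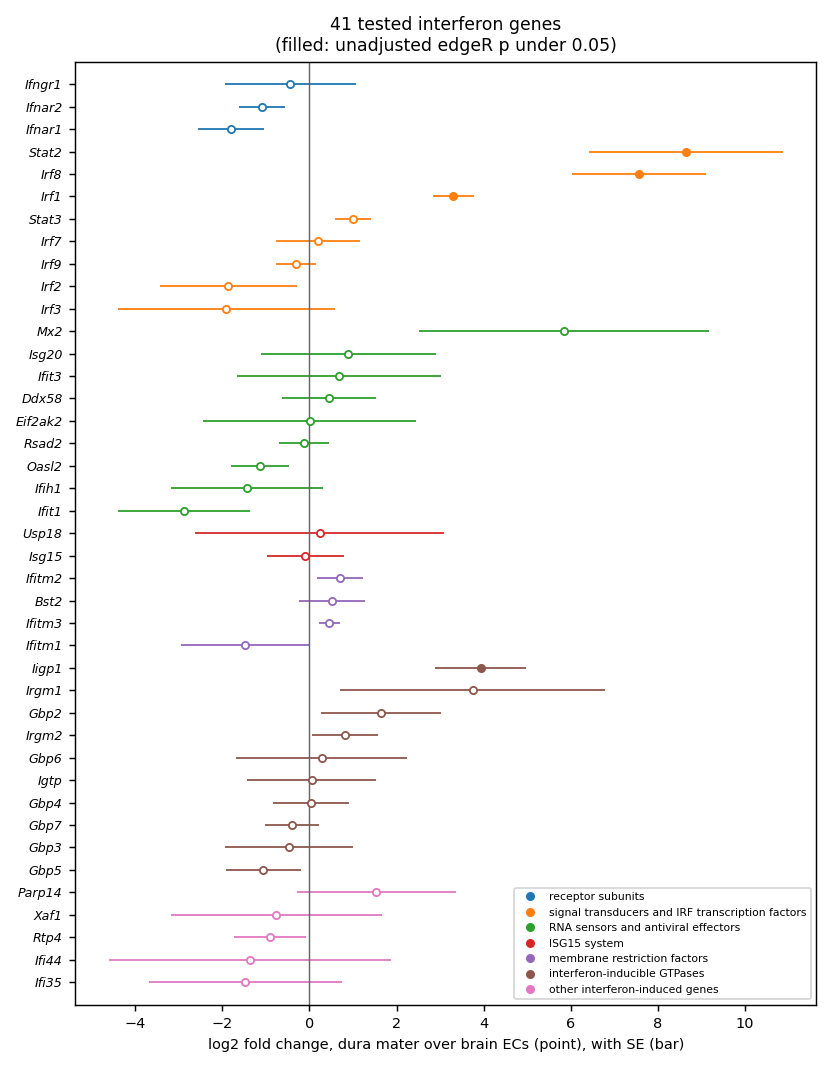
Log2 fold change (dura mater over brain ECs) of the 41 tested genes with its standard error as a bar, ordered within roles that are marked by color; filled points have an unadjusted edgeR p under 0.05. The filled points are Stat2 (8.64), Irf8 (7.58), Iigp1 (3.94) and Irf1 (3.30), and most other bars reach or cross 0.

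RNA sensors and antiviral effectors held 0.0448% and 0.0929% of counts in brain ECs against 0.0515% and 0.0536% in the dura mater, and none of the 9 tested genes of this group had an edgeR p under 0.05, unadjusted. Rsad2, which encodes viperin, was evenly counted, with 1825 and 3081 counts in brain ECs against 1987 and 2976 in the dura mater (log2 fold change −0.12, SE 0.57). Ddx58, the gene of the RNA sensor RIG-I, had 1047 and 473 counts against 1207 and 951, and its 3′ end holds a stretch shared with 80 other annotated genes. Ifih1, the gene of the sensor MDA5, had 734 and 604 counts in brain ECs against 190 and 352 in the dura mater. Oasl2, of the oligoadenylate synthetase family, had 1889 and 2762 against 1085 and 1191. Ifih1 and Oasl2 were the members of this group below the brain range in both dura mater libraries (background 17.1%). Their log2 fold changes were −1.42 (SE 1.74) and −1.14 (SE 0.66), and neither passed.

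Several effectors were carried by a single library. Ifit1, whose product binds viral RNA, had 170 and 3910 counts in brain ECs against 164 and 478 in the dura mater. Its neighbor Ifit2 had 413 counts in brain replicate 2 and at most 1 elsewhere. Oas1a had 248 counts in brain replicate 2 and at most 2 elsewhere. Brain replicate 2 was thus the highest library for these 3 genes, and also held 772 counts of the exonuclease gene Isg20 against 14 in replicate 1. Ifit3 went the other way within brain ECs, with 774 and 3 counts, and had 384 and 934 in dura mater ECs. Eif2ak2, which encodes the kinase PKR, had 20 and 546 counts against 204 and 450. Mx2 had 0 and 19 counts in brain ECs against 1262 and 58 in the dura mater (log2 fold change 5.84, SE 3.33, edgeR adjusted p 0.636), and Mx1 had at most 6 counts in any library. The annotation lists Mx2 as a polymorphic pseudogene, so its counts need not stand for a working protein. The ends of the Mx1 and Mx2 transcripts are 96.7% alike over 239 bases and those of Oas1a and Oas1g over 300 bases to the same degree, so reads of each pair cannot be assigned with certainty.

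The ISG15 system did not separate the tissues. Isg15, a ubiquitin-like protein that is among the most strongly induced by type I interferon, had 1325 and 1324 counts in brain ECs against 1807 and 732 in the dura mater. The brain replicates were level and the dura mater replicates lay on either side of them (log2 fold change −0.09, SE 0.88). Usp18, which removes Isg15 from its targets and damps receptor signaling, had 3 and 407 counts against 412 and 94.

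Among the membrane proteins, the replicates of Ifitm3 lay close together. Ifitm3, which blocks the fusion of viruses with endosomes (chromosome 7, 141009586 to 141010770, minus strand), had 34168 and 32980 counts in brain ECs against 44723 and 54534 in the dura mater. At 2413 ± 96.6 and 3295 ± 14.6 CPM (SD, n = 2) the tissues did not overlap, and the ratio was 1.37 (log2 fold change 0.46, SE 0.25, edgeR adjusted p 0.586). Ifitm2 had 1788 and 2913 counts against 3218 and 5197. Ifitm1 had 1257 and 548 against 297 and 384, the opposite direction from Ifitm2 and Ifitm3, and none of the 3 passed. Bst2, the gene of tetherin, which holds budding viruses on the cell surface, had 1542 and 921 counts against 1152 and 2743, with overlap between the tissues. Transcript ends alike to those of other annotated loci were found for Ifitm1 and Ifitm2, and also for Irf9 and Isg15, so part of their reads may be assigned elsewhere. On the same strand, exons of other annotated genes overlap 40.9% of the exon length of Ifitm2, 29.0% of Gbp6, 13.9% of Rtp4 and 11.3% of Gbp7.

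The interferon-inducible GTPases held 0.0857% and 0.0592% of counts in brain ECs against 0.141% and 0.0845% in the dura mater. Iigp1, an immunity-related GTPase induced by interferon gamma, had 102 and 474 counts in brain ECs against 6764 and 2537 in the dura mater. Its range in dura mater ECs lay above that in brain ECs (326 ± 245 against 21.3 ± 20.3 CPM, SD, n = 2, log2 fold change 3.94, SE 1.05, edgeR adjusted p 0.286, DESeq2 0.00168). Over the alternatives the adjusted p ran from 1.1e-09 without brain replicate 2 to 0.783 without dura mater replicate 1. Its relative Irgm2 had 1493 and 725 counts against 2309 and 1750, and Irgm1 had 56 and 2 against 701 and 88. These were also above the brain range in both dura mater libraries, but missed the threshold (edgeR adjusted p 0.946 and 0.896). Igtp had 3198 and 53 counts in brain ECs against 1482 and 1992 in the dura mater, so its brain replicates lay on either side of the dura mater libraries. The annotation has exons shared by Igtp and Irgm2, over 8.01% and 4.39% of their exon lengths.

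The guanylate-binding proteins, GTPases that coat the vacuoles of intracellular bacteria and parasites, had no member that passed the test. Gbp2 had 1475 and 47 counts in brain ECs against 2528 and 2297 in the dura mater, and was the one of the 6 read here whose tissues did not overlap (log2 fold change 1.64, SE 1.38, edgeR adjusted p 0.916). Gbp7 had 1917 and 2324 counts against 1301 and 2226, and Gbp4 had 1677 and 817 against 1650 and 966. Gbp3 had 1138 and 448 counts in brain ECs against 899 and 238 in the dura mater. Gbp5 had 883 and 3086 against 919 and 1191, and Gbp6 had 458 and 205 against 508 and 316. Log2 fold changes of Gbp3, Gbp4, Gbp5, Gbp6 and Gbp7 ranged from −1.05 (Gbp5) to 0.28 (Gbp6). The last 300 bases of Gbp6 are identical to those of Gbp10, and the end of Gbp4 is at least 95% alike to those of Gbp6, Gbp8, Gbp9 and Gbp10, so Gbp4 and Gbp6 are uncertain as single genes. Gbp10 itself, from the wider pathway list, had 1 and 0 counts against 100 and 82, also without overlap.

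Of the other induced genes, Rtp4, a chaperone of receptors on their way to the cell surface, had 1213 and 2126 counts in brain ECs against 707 and 1274 in the dura mater. Scaled by library size, the tissues did not overlap (log2 fold change −0.90, SE 0.82, edgeR adjusted p 0.946). Parp14, an ADP-ribosyltransferase, had 1262 and 6 counts against 2238 and 1433. Ifi35 had 840 and 1347 counts in brain ECs against 1 and 937 in the dura mater, with antisense exons over 16.8% of its exon length. Ifi44 had 571 and 5 against 2 and 248, and Xaf1, whose 3′ end holds a stretch shared with 145 annotated genes, had 561 and 84 against 92 and 321. For Parp14, Ifi35, Ifi44 and Xaf1 a replicate pair lay further apart than the tissue means, and none of the 5 genes had an edgeR p under 0.05, unadjusted.

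Replicates lay far apart for several of these genes. Of the 45, 9 had 64 or more counts in one library of a tissue and 7 or fewer in its replicate: 7 in brain ECs (Irf3, Oas1a, Ifit2, Ifit3, Usp18, Ifi44 and Parp14) and 3 in dura mater ECs (Ifngr2, Ifi35 and Ifi44). Among the 41 tested genes there were 6 (14.6%), against 33.6% of all genes tested. At least 64 counts in every library were reached by 26 genes, or 63.4% of those tested, against 45.6% of all genes tested. The common biological coefficient of variation was 1.39.

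**Figure D4:**
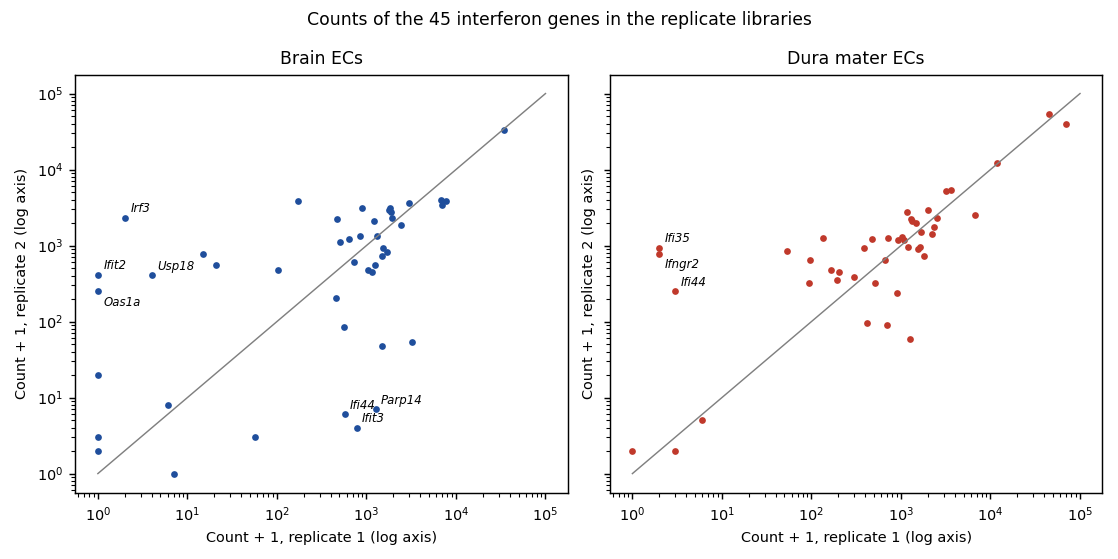
Count plus 1 of each of the 45 genes in replicate 2 against replicate 1 on log axes, for brain ECs (left) and dura mater ECs (right), with the line of equality. The named genes have 64 or more counts in one replicate and 7 or fewer in the other, 7 of them in brain ECs against 3 in the dura mater.

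The upstream letters were then set beside the counts, as a description. The 5 tested genes with a GAS match and no ISRE match had a median log2 fold change of 0.89, with 4 of them above 0 (Irf1, Irf8, Isg20 and Eif2ak2). The 9 with an ISRE match and no GAS match had a median of 0.68, with 5 above 0. For the 6 with both matches the median was −0.17, and for the 14 with neither it was −0.95, with 4 above 0. The 7 tested genes without a window had a median of 0.28, with 6 above 0. Over all genes tested, 4657 of 9347 were above 0. The first 2 of these medians are the values of single genes, Isg20 and Ifit3, whose sign changed when 1 library was left out. The values were wide within each class: −1.08 (Ifnar2) to 7.58 (Irf8) with a GAS match alone, −2.88 (Ifit1) to 8.64 (Stat2) with an ISRE match alone, −1.86 (Irf2) to 0.82 (Irgm2) with both, and −1.91 (Irf3) to 1.00 (Stat3) with neither.

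The other genes of the pathway were read from a list of 102, of which 101 were in the tables and 66 were tested. In edgeR, 1 gene differed at an adjusted p under 0.05 (1.52%, background 0.610%). This was Cxcl10, a chemokine induced by interferon gamma, with 0 and 1 counts in brain ECs against 3824 and 2397 in the dura mater. It passed the filter through its dura mater counts alone. From 1 count in all in brain ECs, the ratio was 5753, with a 95% exact counting interval from 1032 to 227258 that leaves out the spread between libraries. The edgeR adjusted p was 0.0282 (fitted log2 fold change 10.26, SE 1.24), and its adjusted p was 0.0703 in limma-voom and 0.262 without dura mater replicate 1. With unadjusted p-values under 0.05, 7 genes were higher in dura mater ECs and 3 were lower, 15.2% of the 66 in all. The background was 7.04% of all tested genes higher and 2.97% lower. Of the 7, Cxcl10, Socs1, Mb21d1, Tmem173 and Traf3 passed the filter through their dura mater counts alone, so they could enter the test only as higher there. Of the 11 ligand symbols read, 10 had 0 counts in every library: 9 interferons, among them Ifnb1 and Ifng, and the cytokine Il27. The exception was the cytokine Il15, with 334 and 237 counts in brain ECs against 997 and 891 in the dura mater.

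The JAK family kinases had log2 fold changes above 0 without passing the test. Jak1 had 748 and 1876 counts in brain ECs against 1915 and 3894 in the dura mater (log2 fold change 0.98), and Jak2 had 736 and 275 against 802 and 531 (0.37). Tyk2 had 144 and 1 counts against 484 and 251. Of 7 tested negative regulators of the pathway, 4 did not overlap between the tissues (57.1%, background 43.0%). In the dura mater, 3 of them were higher (background 25.9%) and 1 was lower (background 17.1%). Socs3 and Socs1, feedback inhibitors of JAK kinases, were among the 3. Socs3 had 3607 and 1056 counts against 53080 and 43201 (log2 fold change 4.33, SE 0.63, edgeR adjusted p 0.0544), and its adjusted p was under 0.05 in 10 of 14 alternatives, from 3.7e-29 to 0.0581. Socs1 had 1 and 0 against 536 and 683 (edgeR adjusted p 0.466). Socs3 is also one of the dissociation response markers above.

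The other induced genes of the list went both ways: of 38 tested, 20 had a log2 fold change above 0 and 18 below. In each direction 9 did not overlap, together 47.4% of the 38 (background 43.0%, of which 25.9% higher and 17.1% lower). Ly6a, which encodes the surface protein Sca-1, had 81655 and 82438 counts in brain ECs against 23672 and 39543 in the dura mater (log2 fold change −1.50, SE 0.28, edgeR adjusted p 0.109). Ifi27 had 5910 and 5201 against 1518 and 2141 (−1.71, SE 0.44, edgeR adjusted p 0.271), and the RNA-editing enzyme gene Adar, listed with the negative regulators, had 3057 and 3023 against 724 and 1370 (−1.67, SE 0.61, edgeR adjusted p 0.466). These 3 genes were evenly counted in brain ECs and lower in both dura mater libraries, and none passed the threshold over all genes in edgeR. Under 8 of 14 alternatives the adjusted p of Ly6a was under 0.05 (1.9e-08 to 0.517), and under 3 of 14 that of Ifi27 (0.0298 to 0.771). Il6st, the gene of the shared receptor chain gp130, which signals through Stat3, had 600 and 344 counts against 4963 and 6308 (3.48, SE 0.55, edgeR adjusted p 0.0688), with 7 of 14 alternatives under 0.05 (6.5e-06 to 0.215). Mb21d1, the gene of the DNA sensor cGAS, had 8 and 2 counts against 2282 and 587, and Tmem173, which encodes its adaptor STING, had 0 and 2 against 1379 and 853 (edgeR adjusted p 0.248 and 0.306). Like Socs1, both passed the filter through their dura mater counts alone.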

How the data were processed

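RNA of sorted dura mater ECs and brain ECs (2 libraries each) was sequenced from QuantSeq 3′ libraries on a NextSeq 500. For every library the authors deposited a table of counts, one whole number for each gene symbol, not normalized. The methods name TopHat and cufflinks, and the submitters' processing notes list Bowtie2, edgeR and the build mm10. The counting step, annotation, use of strand and molecular identifiers are not given in the sources used here. Groups and replicate numbers came from the sample titles.

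Counts were tested as deposited with edgeR 4.0.16 (R 4.3.3) on all genes: TMM scaling, filterByExpr (minimum count 10, total 15), tissue as the only term, the quasi-likelihood test and Benjamini-Hochberg adjustment over 9347 genes, with a threshold of 0.05. It stands in for cufflinks, which needs alignments. Log2 fold changes (dura mater against brain) use a prior count of 2. The SE is the log2 fold change over the square root of F. CPM are counts per 1000000 of the TMM-scaled total, and a mean ± SD is over n = 2. Depth was 13518973 to 16096203 counts per library, and counting intervals cover counting error only. Alternatives were DESeq2 1.42.0, limma-voom (limma 3.58.1), other scalings, filters, dispersion and prior count, a replicate block and each library left out. The other prior count changes only the log2 fold change, so among the alternatives its p-values repeat those of the main fit. Shares of counts without Irf1 or Ifitm3 were added after the data were seen. Scripts were tested on simulated data. The pass mark was set only at a spread between libraries well below that of these data, so it does not show the power of the test here.

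The genes and lists were chosen with earlier results of these data known. All 45 genes could be named. Per-library counts were given for genes with 64 or more counts in a library. Of the other pathway genes the rule named Jak1, Jak2, Tyk2, Socs1, Socs3 and a gene not reported here, each gene called, and the 6 smallest p-values among genes with 64 or more counts in both libraries of a tissue. Il15, Il27, Ifnb1, Ifng, Adar, Gbp10, Tmem173 and Traf3 are named outside it, after their values were seen, as are the markers. Positions are from GENCODE M21 (GRCm38) for 45 of 45 symbols, upstream sequences from RefSeq. Transcript ends (last 300 bases) were compared with all transcripts by blastn, at 95% identity over 75 bases.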

Additional observations from a re-analysis of the deposited data

How the results depend on the processing

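With the alternatives in turn, genes differing at an adjusted p under 0.05 over the whole table (57 in edgeR) numbered 326 without a filter on low counts, 141 with at least 10 counts in every library, 810 in DESeq2, 305 with the newer edgeR dispersion and 80 to 740 with 1 library left out. Interferon genes so called (0 in edgeR) numbered 4 of 45, 2 of 31, 4 and 3 under the first 4 of these, 1 under upper-quartile scaling, 1 in limma-voom and 1 to 8 with 1 library left out. Other pathway genes (1 in edgeR) numbered 5, 3, 10 and 4, 2 in limma-voom, and 1 to 9. The replicate numbers give no shared animal or day, and deviations of same-numbered libraries did not run together (correlation across genes −0.0153). With the replicate number as a block, 224 genes (2.40%), 2 of 41 interferon genes (Irf1 and Iigp1) and 4 of 66 pathway genes were called. With the block, the median of the interferon genes was 0.29. That median (0.04) became 0.14 under upper-quartile scaling, 0.33 in limma-voom and −0.22 to 0.21 with 1 library left out. The median of all genes shifted as well, from −0.01 to 0.13 under upper-quartile scaling, 0.28 in limma-voom, 0.25 with the block, 0.27 without a filter, and 1.03 and 0.95 without brain replicate 1 and 2. The interferon genes' mean share of counts (0.634% in brain ECs, 1.13% in dura mater ECs) was 0.666% and 0.814% without the 10 most counted genes of each library, among them Irf1. It was 0.596% and 0.746% without Irf1, and 0.396% and 0.791% without Ifitm3. The count of genes without overlap stayed at 18 under RLE scaling and library size alone.

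Of the 41 tested genes, 21 kept the sign of their log2 fold change under the alternatives run. The sign changed for Irf3 in limma-voom (2.17) and with the block (1.35), for Eif2ak2 under RLE scaling (−0.11), without a filter (−0.022) and in DESeq2 (−0.11), and for Rsad2 (0.033) and Isg15 (0.017) under upper-quartile scaling. It also changed for Gbp4 under RLE scaling (−0.015), in DESeq2 (−0.015) and in limma-voom (−0.056), and for Igtp under RLE scaling (−0.034), without a filter (−0.020) and in DESeq2 (−0.034). With 1 library left out, log2 fold changes ran from −2.58 to 0.24 for Ifngr1, −3.63 to 6.78 for Irf3, −0.28 to 0.76 for Irf7, −0.75 to 0.16 for Irf9, −0.030 to 1.01 for Ddx58, −1.002 to 3.76 for Eif2ak2, −3.89 to 0.74 for Ifit1, −0.39 to 6.83 for Ifit3, −0.55 to 0.32 for Rsad2, −0.14 to 5.58 for Isg20 and −1.23 to 0.47 for Isg15. They ran from −1.55 to 5.73 for Usp18, −0.053 to 0.81 for Bst2, −2.08 to 0.25 for Gbp3, −0.72 to 0.53 for Gbp4, −1.77 to 0.15 for Gbp5, −0.42 to 0.84 for Gbp6, −0.99 to 4.76 for Igtp, −6.09 to 3.84 for Ifi44, −1.71 to 0.98 for Xaf1 and, of the other pathway genes, −0.28 to 1.11 for Jak2. The cause was not tested.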
